A study of Bos taurus with 32 samples.

Results

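Kinesins are motor proteins that walk along or dismantle microtubules, and many of them build the meiotic and mitotic spindle. Centromere proteins form the kinetochore, the structure that ties each chromosome to spindle microtubules, and the spindle checkpoint holds division until all chromosomes are attached. An oocyte stores mRNA for the maturation division and the first cleavages, because its own transcription falls silent before the embryonic genome is switched on, which in cattle happens at about the 8- to 16-cell stage. Adenosines of mRNA can carry a methyl group, N6-methyladenosine (m6A), which is known to affect the stability and translation of transcripts.

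The 42 genes described here are the kinesins, the genes named for centromere proteins (CENP), the checkpoint genes BUB1, BUB1B and BUB3, the NDC80 complex genes NDC80 and SPC25, and INCENP. They were chosen by gene symbol, with CENPF left out, and by a deposited m6A score of at least 0.1 in immature oocytes. They hold 475 of the 60417 sites called in immature oocytes, in a table of 65535 listed adenosines. The GV score was used to choose the sites, so every site is called at GV by construction, and GV values are given as a description. At the edge of that rule, 24 sites had a GV score from 0.1 to under 0.11. Among the listed sites just outside it, 1 site of KIFC3 had a GV score of 0.0883.

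The study mapped m6A in cattle by m6A-SAC-seq, in which an enzyme puts an allyl group on m6A and the reverse transcriptase then makes a mutation at that base. It covered immature oocytes at the germinal vesicle (GV) stage, mature oocytes at metaphase II (MII), embryos of 2, 4, 8 and 16 cells, morulae and blastocysts. Each stage had an input arm and a treated arm with 2 replicates of 200 cells, 32 libraries in all. Oocytes came from slaughterhouse ovaries and were matured in BO-IVM medium, fertilised in vitro with frozen Holstein semen and grown in SOF-BE2 medium, so all embryos were produced in vitro. No genetic change or drug separates the groups.

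The analysed table gives 1 score per adenosine and stage, so replicate error is unknown, no difference between stages could be tested, and read depth is unknown. A site counts as called at a score of at least 0.1, and intervals below are exact Clopper-Pearson 95% intervals that cover the counting of sites only. A missing call can reflect less of the transcript, fewer cells, less RNA per cell, less methylation or fewer reads, and these cannot be told apart. The table ends within the sites called at MII and not at GV, so stages after MII are described only at sites called at GV. As a check of the stages, 6 of 7 oocyte marker genes carried 135 GV sites, of which 85, 62, 80, 51, 12, 3 and 0 were called at the 7 later stages in order of development, and ZP3 had no listed site. Over all GV-called sites the shares called at those stages were 34.1%, 7.39%, 22.7%, 9.32%, 6.01%, 4.42% and 7.64%. The blastocyst epithelium genes KRT8, KRT18 and GATA3 had no listed site and CDX2 had 1, while EZR went from 26 at GV to 21 in blastocysts. Because the table ends before sites first called after MII, these genes cannot check the blastocyst stage. Cumulus and granulosa markers had 30 GV sites in STAR and HAS2 and 12, 4, 9, 2, 0, 0 and 0 at those stages, and CYP19A1 and FSHR had no listed site. Their part in the results was not tested.

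The adenosines that lasted longest in these genes, and those with the highest GV scores, are shown first because the later results turn on them. Each line gives the gene, the part of the transcript, the deposited position (the genome build is not given in the sources used here), and the deposited 5-base motif read 5′ to 3′ on the transcript, with the scored adenosine in capitals.
BUB3, 3' untranslated region, chromosome 26, position 42959626, plus strand: taAgg
BUB3, coding sequence, chromosome 26, position 42950046, plus strand: cgAtc
BUB3, coding sequence, chromosome 26, position 42952056, plus strand: agAtg
CENPV, coding sequence, chromosome 19, position 33274924, plus strand: agAcc
CENPV, coding sequence, chromosome 19, position 33277035, plus strand: tgAcc
CENPV, 3' untranslated region, chromosome 19, position 33282653, plus strand: agAcc
KIF22, coding sequence, chromosome 25, position 26444708, minus strand: agAct
KIF22, coding sequence, chromosome 25, position 26445431, minus strand: agAat
KIF20A, coding sequence, chromosome 7, position 49615305, plus strand: gaAga
KIF20A, coding sequence, chromosome 7, position 49621331, plus strand: agAct
KIFC1, coding sequence, chromosome 23, position 7579333, plus strand: gaAcc
CENPI, coding sequence, chromosome X, position 50996453, minus strand: taAga
BUB1, coding sequence, chromosome 11, position 1595331, plus strand: gaAcc
KIF15, coding sequence, chromosome 22, position 16535088, plus strand: aaAga
KIF19, coding sequence, chromosome 19, position 57109041, minus strand: aaAgt
Of these 15 sites, 7 have a motif of the m6A consensus DRACH (A, G or T, then A or G, then A, C, and last A, C or T). The first 8 lines are all the sites called at 6 or more of the 8 stages, and the 5 highest GV scores belong to BUB1, CENPI, KIF15, KIF20A and KIF19.

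In GV oocytes the sites were spread unevenly over the 42 genes. KIF24, a centriolar kinesin that removes tubulin from microtubule ends, had 48 sites, and KIF20B, a kinesin of cytokinesis, had 42. KIF23, the motor of the centralspindlin complex of the dividing cell's midzone, had 33, KIF3C, a kinesin-2 motor of transport, 31, and KIF20A, which brings the chromosomal passenger complex to the midzone, 26. These 5 genes held 180 sites, or 37.9%. The sites of KIF24 (ENSBTAG00000012921) spanned 48.7 kb on the minus strand of chromosome 8, from position 75651882 to 75700569. Those of KIF20B (ENSBTAG00000005708) spanned 77.7 kb on the plus strand of chromosome 26, and those of KIF23 (ENSBTAG00000009983) 40.3 kb on the plus strand of chromosome 10. Those of KIF3C (ENSBTAG00000019138) spanned 35.5 kb on the plus strand of chromosome 11, and those of KIF20A (ENSBTAG00000008758) 7.53 kb on the plus strand of chromosome 7, so the sites of KIF20A lay closest together of the 5 over their whole span. The median gene had 8.5 sites, against 5.0 over 5997 protein-coding symbols, while 20 genes had 5 sites or fewer and 4 had 1 site. KIF11, the motor that pushes spindle poles apart, and CENPE, the kinetochore motor, had only 2 sites each.

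Coding sequence held 378 of the 475 sites, or 79.6%, against 71.0% of all GV-called sites with a known region. The 3' untranslated regions held 83 sites, or 17.5% against 22.9%, with 10 sites in 5' untranslated regions and 4 in introns. KIF3C went the other way, with 25 of its 31 sites in the 3' untranslated region, which is 25 of the 83 such sites of the 42 genes. KIF20B and KIF22, a motor on chromosome arms, had every GV site in coding sequence. DRACH motifs surrounded 152 sites, 32.3% of the 471 with a listed motif, against 34.2% of all GV-called sites. KIF24 had 20 such motifs among 48 sites and KIF3C 19 of 31, whereas KIF23 had 4 of 33 and BUB3, a checkpoint protein, 1 of 15. GAC stood at the 3 central bases of 34.0% of the sites against 39.4% in the table, and GAA of 15.5% against 12.5%.

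GV scores of the 475 sites had a median of 0.209 (quartiles 0.150 and 0.351), against 0.216 (quartiles 0.152 and 0.365) for all GV-called sites. The median was 0.290 at DRACH sites and 0.189 at the others, and 29 sites scored 1 or more. The scale of the score depends on the motif. The 24 sites at GGACA had a median of 1.16 and the 32 at AGACT a median of 0.271, so scores of different stages were compared only at the same adenosine. The medians over groups of sites mix motifs and are a description. The highest score, 8.16, was in BUB1, the checkpoint kinase, at a GAACC motif, and the same adenosine scored 5.81 at MII and 0 at each later stage. The motifs of the 5 highest scores also score high in other genes. Over all GV-called sites their medians were 2.01 (GAACC), 2.27 (TAAGA), 2.11 (AAAGA), 2.77 (GAAGA) and 2.17 (AAAGT). The site of KIF15, a spindle kinesin, scored 5.63 at GV and 0 at all 7 later stages, as did the site of KIF19 at 4.71.

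Sites lay close together in some transcripts. In KIF24, 22 of the 48 sites fell within 1.86 kb of coding sequence (chromosome 8, positions 75654672 to 75656528), and 11 of the 22 had a DRACH motif. In KIF3C, 24 of the 31 sites fell within 1.92 kb of 3' untranslated region (chromosome 11, positions 73493404 to 73495325), 15 of them in DRACH motifs. In KIF22, 11 of 23 sites lay within 1.81 kb, and in KIF20A 12 of 26 lay within 1.83 kb. Of the 475 sites, 85 had another of the same gene within 20 bases, so neighbouring calls can rest on the same reads and are not independent.

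At MII, 148 of the 475 sites were called again, 31.2% (interval 27.0 to 35.5), against 34.1% of all GV-called sites, which is near that background. KIF24 kept 21 of 48, KIF20B 17 of 42, KIF23 14 of 33 and KIF3C 11 of 31. CENPO, a subunit of the inner kinetochore, kept 7 of 16, KIF3B, a motor of intraflagellar transport, 5 of 12, and BUB3 7 of 15. Fewer were called in KIF20A (5 of 26), KIF18A, which steadies chromosomes at the spindle equator (5 of 21), KIF14 of the cytokinetic midbody (5 of 22) and KIF2C, the microtubule depolymerase of centromeres (5 of 20). CENPJ, which despite its name is a centriole protein, kept 2 of 14. No MII call was found at the 9 GV sites of KIF4A, a chromosome-bound kinesin, or at the 8 of KIF13B, a transport kinesin. In all, 29 genes had an MII call at a GV site and 13 had none, and these 13 held few sites each apart from KIF4A and KIF13B. Of the 13, CENPT, KIF1B and KIF19 had MII calls at other adenosines. Only these of the 13 lie where sites called at MII and not at GV are listed in full. For the rest of the 13, MII calls at other adenosines cannot be checked. Here and at the later stages, numbers of genes with a call at a single stage have no value over all genes beside them and are a description only.

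Where a site was called at both stages, its score could be set against the GV score, a comparison limited to sites that passed the minimum at both. On the log2 scale the MII score over the GV score had a median of -0.05 (quartiles -0.35 and 0.24) over 148 sites, with 65 higher at MII, against -0.11 over 20625 sites of the table. The 4 GGACA sites in the dense stretch of KIF24 scored 2.45, 2.20, 0.654 and 2.49 at GV and 1.01, 2.11, 0 and 0.933 at MII. Their scores did not change alike, since 1 stayed close to its GV score and 1 was not called at MII. Without replicates this difference was not tested. DRACH sites were called again at 41.4% (interval 33.5 to 49.7) and other motifs at 26.6% (interval 21.9 to 31.9), against 45.3% and 29.4% in the table. By region, coding sites were at 31.2% and 3' untranslated sites at 33.7%, against 34.2% and 36.6%. With a minimum score of 0.2 at both stages 68 of 255 sites (26.7%) were called at MII, against 30.0%, and with any MII score above 0 counted it was 174 of 475 (36.6%), against 38.9%.

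**Figure D1:**
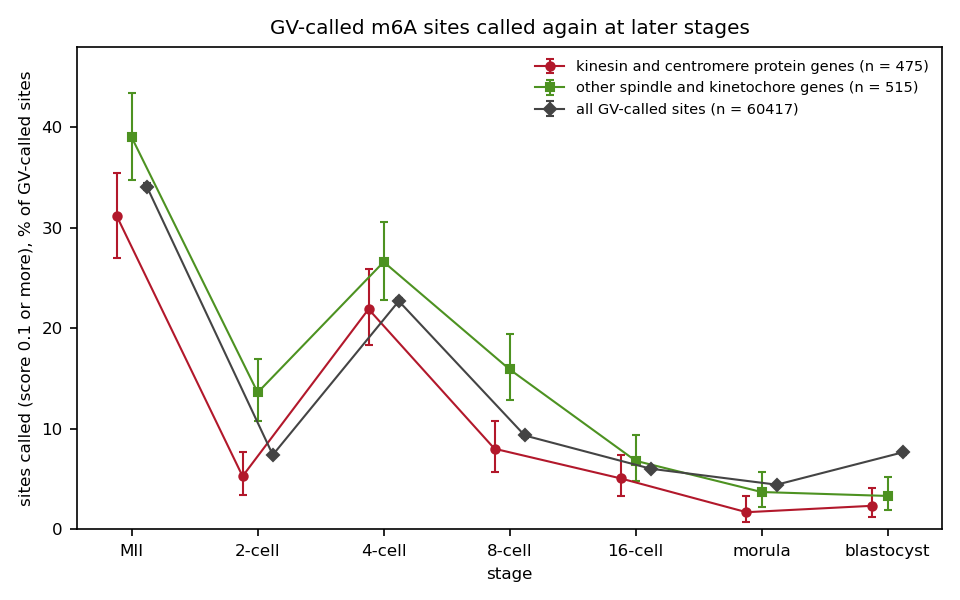
Percentage of GV-called sites called again (vertical axis) at each later stage (horizontal axis) for the kinesin and centromere protein genes, for the other spindle and kinetochore genes and for all GV-called sites, with exact 95% counting intervals as bars. The kinesin and centromere genes stand at 31.2% in MII oocytes, 5.26% in 2-cell embryos, 21.9% in 4-cell embryos and 2.32% in blastocysts, the last below the 7.64% of all sites.

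Sites called at MII and not at GV are listed in full only for the minus strand of chromosomes 10 to 19, which allows a comparison in both directions there. In this window 10 genes of these symbols, KIF1C among them, had 88 GV sites and 75 MII sites, a ratio of 0.852 against 0.714 for all sites. They shared 24 adenosines, while 64 had a call in GV oocytes alone and 51 in MII oocytes alone. As a share of each list that is 27.3% of the GV sites and 32.0% of the MII sites, against 33.4% and 46.8% of all sites. Without KIF1C, a transport kinesin that had no GV-called site, there were 68 MII sites, the ratio was 0.773 and 35.3% of the MII sites were shared. KIF18A had 21 sites at GV and 17 at MII, of which 5 were the same adenosines. KIF14 had 22 and 16, with 5 the same. Most positions differed between the stages in both motors, as they did over all sites of the window, and the ratio of MII to GV sites was 0.810 in KIF18A and 0.727 in KIF14.

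The 7 MII sites of KIF1C were all in coding sequence, with scores from 0.143 to 1.23, and the gene is outside the 42 because none was called at GV. CENPT, which links centromeric chromatin to the NDC80 complex, had 2 sites at GV and 5 others at MII. CENPO had 16 and 12 with 7 shared, KIFC3, a minus-end motor, 10 and 8 with 4 shared, and CENPL of the inner kinetochore 9 and 5 with 2 shared. Of the sites with a motif, 12 of the 24 shared ones were DRACH (50.0% against 47.1% in the whole window). Among those of GV oocytes alone it was 19 of 63 (30.2% against 29.5%), and among those of MII oocytes alone 13 of 49 (26.5% against 29.6%).

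Some GV-only and MII-only sites were near neighbours. Of the 51 MII-only sites, 10 (19.6%) lay within 20 bases of a GV-only site of the same gene, against 12.6% of the MII-only sites with a gene in the whole window. Of the 10, 4 were in KIF18A and 3 in KIF14, so the share rests on few genes. Its difference from 12.6% was not tested. In the 3' untranslated region of KIF18A (chromosome 15, minus strand) a GV-only and an MII-only adenosine were direct neighbours, and in coding sequence of KIF14 (chromosome 16, minus strand) a pair lay 3 bases apart.
KIF18A, position 58720817, GV score 0.513 and MII score 0: gaAct
KIF18A, position 58720818, GV score 0 and MII score 0.261: ggAac
KIF14, position 79272643, GV score 0.166 and MII score 0: cgAtg
KIF14, position 79272640, GV score 0 and MII score 0.135: tgAtg
In both pairs the motifs overlap, so the same stretch of transcript was scored at both stages but at a different adenosine.

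**Figure D2:**
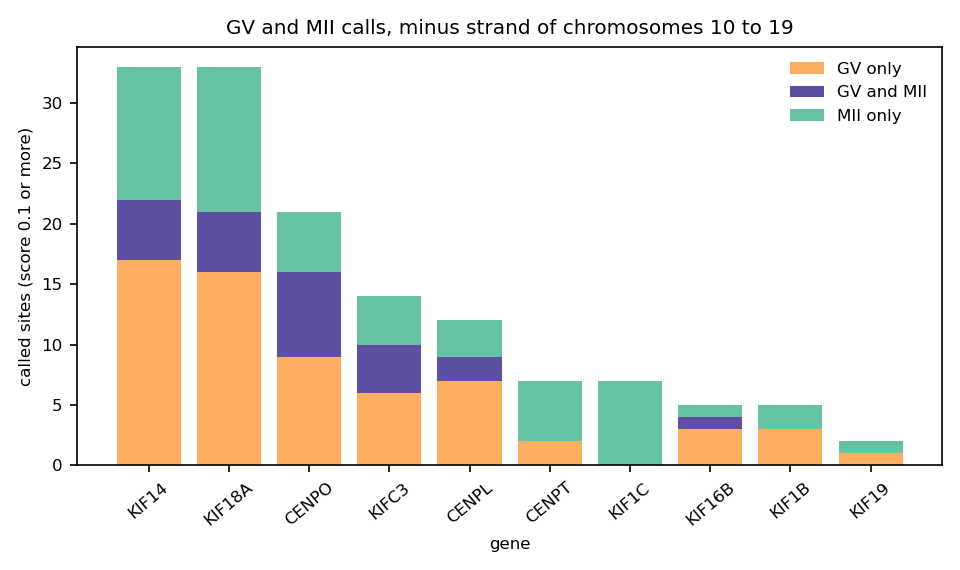
Called sites per gene (vertical axis, number with a score of 0.1 or more) for the 10 genes with sites on the minus strand of chromosomes 10 to 19, stacked as GV only, GV and MII, and MII only. KIF14 and KIF18A have 33 sites each, of which 5 are called at both stages, and KIF1C has 7 sites at MII only.

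At the 2-cell stage 25 of the 475 sites were called, 5.26% (interval 3.43 to 7.67), against 7.39% of all GV-called sites. At their GV sites 30 of the 42 genes had no call, a number not set beside that of all genes. At DRACH motifs it was 14 of 152 sites, 9.21% against 8.67%. The calls lay in 12 genes, with 4 each in KIF20B, KIF3C and CENPV, 3 in KIF23 and 2 each in KIF24 and KIF22. No call was found in KIF20A (26 GV sites), KIF18A (21), CENPO (16), BUB1B, the checkpoint protein BUBR1 (15), or CENPJ (14). On the log2 scale the 2-cell score over the GV score had a median of 0.40 at the 25 sites, with 21 higher at the 2-cell stage, against 0.31 over the table. Low scores were scarce there. None of the 25 scores above 0 in these genes was under the minimum of 0.1, whereas 26 of 174 MII scores were. Over all GV-called sites, 5.68% of the 2-cell scores above 0 lay under 0.1, against 12.2% at MII.

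By the 4-cell stage 104 sites were called, 21.9% (interval 18.3 to 25.9) against 22.7% in the table, in 24 genes. From 2-cell to 4-cell embryos KIF24 went from 2 sites to 17, KIF3C from 4 to 12, BUB3 from 1 to 8, KIF2C from 1 to 7 and KIF23 from 3 to 8. KIF20B went from 4 to 8 of its 42 sites. With a minimum score of 0.2 at GV and in 4-cell embryos it was 38 of 255 sites, 14.9% against 17.8%. Both MII and the 4-cell stage called 63 sites, which is 42.6% of the MII and 60.6% of the 4-cell calls, against 43.3% and 65.2% for all GV-called sites. The 4-cell score over the GV score had a median of -0.08 on the log2 scale over 104 sites, against -0.06 in the table.

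In the dense stretch of KIF24, MII oocytes had 13 of the 22 sites, 2-cell embryos 2, 4-cell embryos 12 and 8-cell embryos 3, and no later stage had any. The adenosine at position 75655458, in a GGACG motif, was the only 1 of the 22 called at each stage from GV to 8-cell, with scores of 0.581, 0.437, 0.746, 0.359 and 0.446. The 3' untranslated stretch of KIF3C had 9, 2, 9 and 4 calls among 24 sites in the same order and none later. Its GGACA adenosine at position 73493602 scored 1.34 in GV oocytes, 1.07 in MII oocytes, 0 in 2-cell, 1.04 in 4-cell and 1.51 in 8-cell embryos, and 0 after that. Fewer calls in 2-cell embryos than before and after is also the pattern of all GV-called sites (34.1% at MII, 7.39% in 2-cell and 22.7% in 4-cell embryos), and the stretches were chosen after their values were seen.

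**Figure D3:**
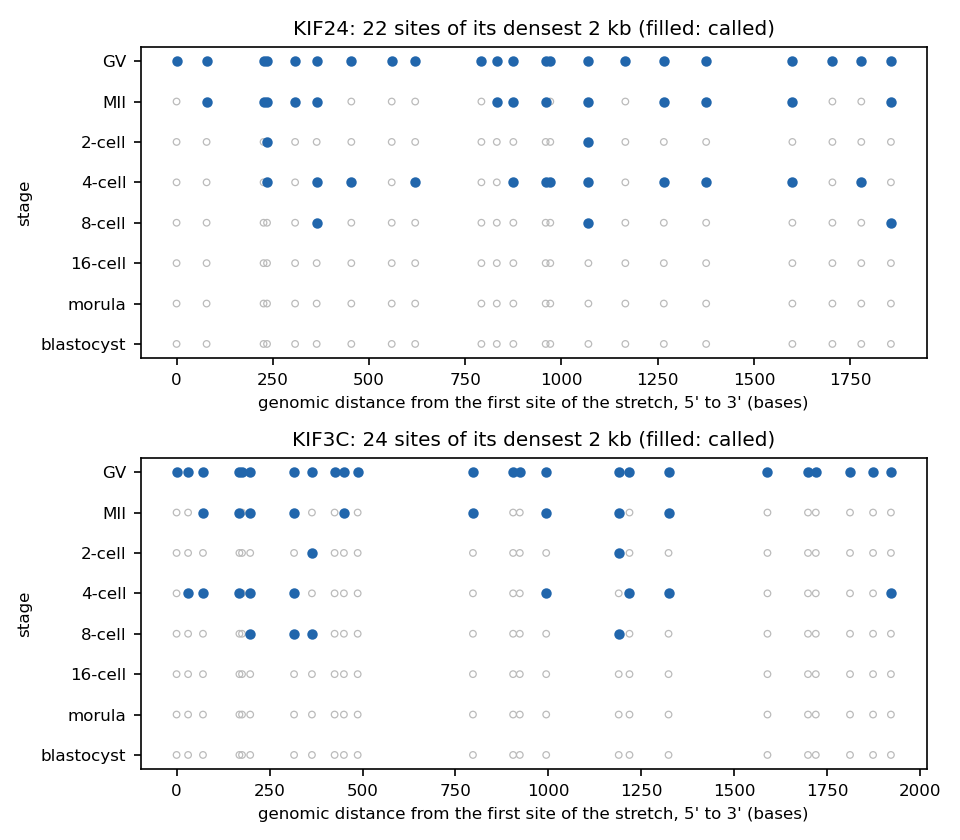
Sites of the densest 2 kb of KIF24 (22 coding sites) and KIF3C (24 sites of the 3' untranslated region), by genomic distance in bases from the first site (horizontal axis) and stage (vertical axis). Filled points are called sites and open points are not called, and in both genes the rows from the 16-cell stage on hold no filled point.

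At the 8-cell stage 38 sites were called, 8.00% (interval 5.72 to 10.8), against 9.32% in the table, and they lay in 11 genes. CENPV, a gene named for the centromere, kept 7 of 10, KIF23 6 of 33, KIF3C 6 of 31, KIF22 5 of 23 and BUB3 4 of 15. KIF20B, with 42 GV sites, and KIF2C, with 20, had none, and KIF24 had 3. Also at 0 were KIF18A, CENPO, BUB1B, CENPJ, SPC25 of the NDC80 complex (13 GV sites), KIF15 (12), KIF3B (12) and KIF3A, the partner of KIF3B (11). In 3' untranslated regions 10 of 83 sites were called (interval 5.93 to 21.0%, against 7.89% in the table), and KIF3C held 5 of the 10. In coding sequence it was 26 of 378, 6.88% (interval 4.54 to 9.92) against 9.79%.

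The 16-cell stage had 24 called sites, 5.05% (interval 3.26 to 7.42), against 6.01%, which is near that background. They lay in 6 of the 42 genes, a number not set beside that of all genes. KIF22 had 8 of 23, as many as at MII, where 8-cell embryos had 5. BUB3 had 5 of 15, KIF2C 4 of 20, KIF20A 3 of 26, CENPV 3 of 10 and KIF5B, the heavy chain of conventional kinesin, 1 of 4. KIF2C had no call at the 8-cell stage and KIF20A had 1, so both genes had more calls at the 16-cell stage. Between the 8-cell and 16-cell stages 9 sites were shared. Of the 8 KIF22 sites, 3 had not been called at any stage since GV and 1 more had been called since then only at MII. Of the 24 sites, 6 had DRACH motifs. That is 3.95% (interval 1.46 to 8.39) of the 152 such sites, and the interval holds the 7.69% of the table.

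Morulae had 8 called sites, 1.68% (interval 0.730 to 3.29), against 4.42% of all GV-called sites. They lay in KIF20A (3), BUB3 (2), CENPV (2) and KIF22 (1), and 6 of the 8 had been called at the 16-cell stage. Blastocysts had 11 called sites, 2.32% (interval 1.16 to 4.11), against 7.64%, and shared 1 with morulae. With each gene counted once it was 5.02% against 8.23%, since KIFC1 and CENPI have few sites. They lay in KIFC1, a minus-end spindle motor (3 of 5), KIF23 (2 of 33), and with 1 each in KIF20A, KIF22, KIF2C, BUB3, KIF5B and CENPI of the inner kinetochore. At both stages the counting interval over sites lay below the percentage of all GV-called sites, and the difference was not tested because sites of a gene are not independent.

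Among the sites that lasted, the adenosine of BUB3 in the 3' untranslated region scored 1.59 in GV and 2.18 in MII oocytes. Embryos of 2, 4, 8 and 16 cells had 0, 1.5, 1.64 and 1.55, morulae 0 and blastocysts 3.58. It was high at each stage where it was listed above 0. The 2 coding sites of BUB3 shown above scored 0.172 each in GV oocytes, 0.193 and 0.111 in MII oocytes and 0 in 2-cell embryos. They scored 0.133 and 0.180 in 4-cell, 0.230 and 0.143 in 8-cell and 0.172 and 0.274 in 16-cell embryos, 0.244 and 0.216 in morulae and 0 in blastocysts. Both were thus called wherever the 3' site was, except in blastocysts, and in morulae besides.

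CENPV carried the only site called at 7 stages, at position 33274924. It scored 0.159 in GV and 0.129 in MII oocytes, 0.121, 0.139, 0.132 and 0.264 in embryos of 2, 4, 8 and 16 cells, 0.463 in morulae and 0 in blastocysts. The first 5 of these scores were close together and the last 2 above 0 were the highest. CENPV as a whole had 10 sites at GV, then 6, 4, 7, 7, 3, 2 and 0. None of the 475 sites was called at all 8 stages, against 0.414% of all GV-called sites, and 264 sites (55.6%) were called at GV only, against 52.0%.

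The KIF20A adenosine at position 49615305 scored 5.49 in GV and 4.42 in MII oocytes, 0, 10.1, 0 and 9.62 in embryos of 2, 4, 8 and 16 cells, 3.00 in morulae and 0 in blastocysts. Its motif, GAAGA, is not DRACH. The site at position 49621331 of the same gene, in AGACT, scored 0.502 in GV oocytes and 0 from MII to the 4-cell stage. It then scored 0.505 in 8-cell and 0.769 in 16-cell embryos, 0.527 in morulae and 0.870 in blastocysts. It was thus not called from MII to the 4-cell stage and called at each stage from the 8-cell on.

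In KIFC1, 3 of the 5 sites were called in blastocysts and not between the 2-cell and morula stages. Its site at position 7579333 scored 3.10 at GV, 0.801 at MII, 0 from the 2-cell to the morula stage and 1.85 in blastocysts. Its sites at positions 7580734 and 7580776 scored 0.260 and 0.237 at GV, 0 and 0.365 at MII, 0 in the next 5 stages and 0.347 and 0.546 in blastocysts. Of its other sites, that at position 7582031 scored 0.153 at GV, 0.245 at MII and 0.385 in 8-cell embryos, with 0 elsewhere, and that at position 7580803 was called at GV only. The single site of CENPI scored 5.93 at GV, 0 at the 6 stages between and 6.30 in blastocysts. Over the 11 blastocyst sites the median log2 ratio to the GV score was 0.80, with 10 higher, against 0.19 over 4613 sites of the table. The lowest of the 11 blastocyst scores was 0.347, and these genes had no blastocyst score between 0 and that value. Those of the 11 sites with a GV score under 0.347, such as 0.260 and 0.237 in KIFC1, thus all came out higher. The median of 0.80 against 0.19 is therefore not read as a rise in these genes. Over the table, 8.60% of the blastocyst scores above 0 lay under 0.1.

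**Figure D4:**
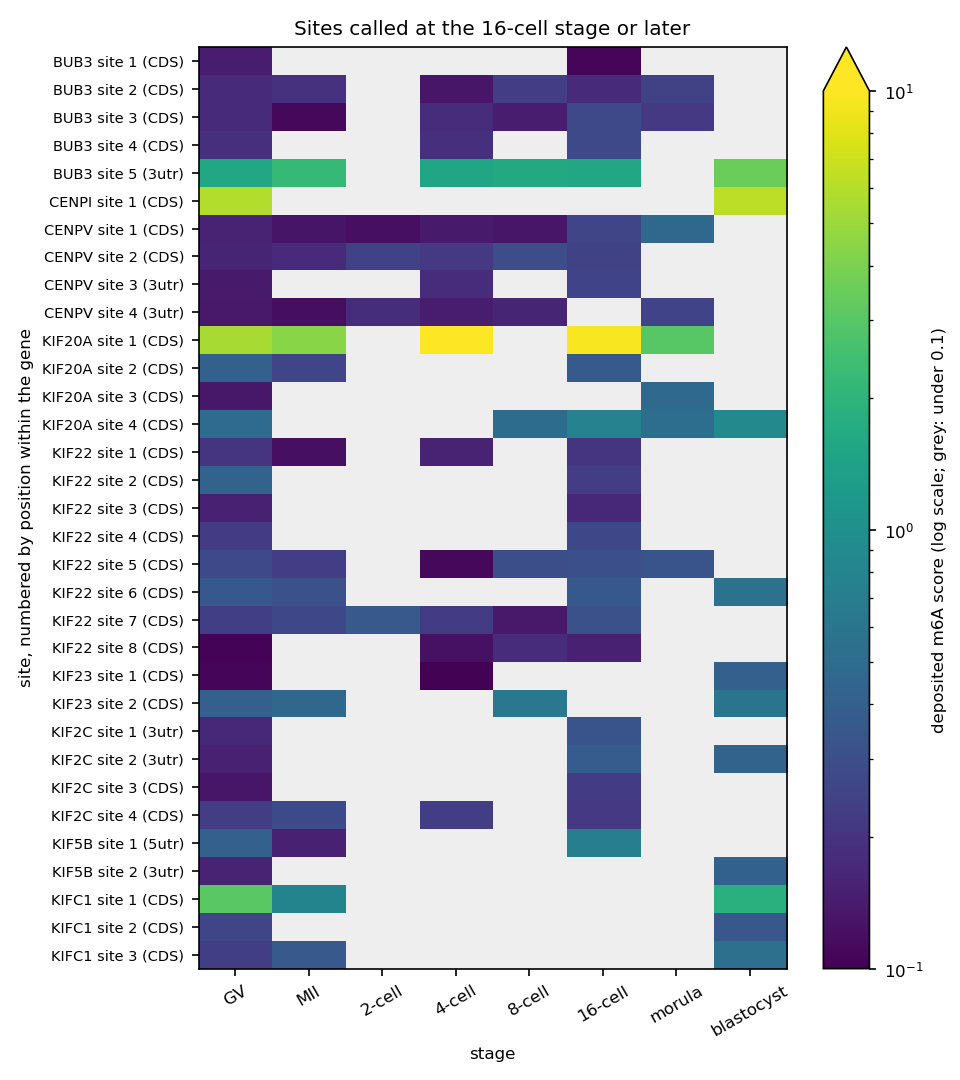
Deposited m6A scores (colour, log scale; grey is under 0.1) of the 33 sites called at the 16-cell stage or later, by stage (horizontal axis) and site (vertical axis, numbered by position within the gene). Most sites of KIF22 and KIF2C are coloured at the 16-cell stage and grey in morulae, while 3 sites of KIFC1 and the CENPI site are grey from the 2-cell to the morula stage and coloured in blastocysts.

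Grouped by role, the 14 genes of spindle, centriole and cytokinesis kinesins (CENPE included) had 266 sites. MII oocytes had 32.3% of them, 4-cell embryos 21.1%, 8-cell embryos 6.77% and blastocysts 3.01%, against 34.1%, 22.7%, 9.32% and 7.64% of all GV-called sites. The 11 transport and other kinesins had 88 sites, at 28.4%, 23.9%, 9.09% and 1.14% at the same stages. The 9 inner kinetochore genes had 44 sites, at 27.3%, 18.2%, 2.27% and 2.27%. The 4 checkpoint and passenger genes had 38 sites, at 31.6%, 23.7%, 10.5% and 2.63%, and BUB3 held all 12 of their calls from the 8-cell stage on. NDC80 and SPC25 had 15 sites and no call after the 4-cell stage, where a count of 0 has an interval of up to 21.8% at each stage and so holds the share of all sites. CENPJ and CENPV, which belong to none of these roles, had 24 sites, at 33.3%, 29.2%, 29.2% (interval 12.6 to 51.1) and 0%, and CENPV held all 7 of their 8-cell calls. The intervals of the first 5 roles overlap at these 4 stages, so no order can be read from them. At the 8-cell stage the interval of CENPJ and CENPV lies above those of the spindle kinesins (4.06 to 10.5) and the inner kinetochore (0.0575 to 12), which rests on CENPV alone.

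Genes of 1 complex or family are given side by side, as counts without a test. Of the checkpoint proteins that act together, BUB3 had calls at all 7 later stages, whereas BUB1B kept 4 of 15 sites at MII and none later, and BUB1 1 of 3 at MII and none later, too few sites to tell. Of the kinesin-6 family, KIF20A had 1 call in blastocysts, KIF23 had 6 at the 8-cell stage, none at the 16-cell and morula stages and 2 in blastocysts, and KIF20B had none after the 4-cell stage. Of the kinesin-2 motors, KIF3C had 6 calls at the 8-cell stage and KIF3A and KIF3B none after the 4-cell stage. INCENP, the scaffold of the chromosomal passenger complex, had 5 GV sites, with none of them called at MII and 1 at each of the 2-cell and 4-cell stages. In 9 genes, with 31 GV sites together, no GV site was called at a later stage. In 15 genes, with 71, no GV site was called after MII. The 9 and 15 are 21.4% and 35.7% of the 42 genes, against 28.8% and 41.0% of all 6087 genes with a GV-called site. Apart from KIF4A and KIF13B the 9 genes had at most 3 GV sites each. Among the 9, KIF1B and KIF19 had MII calls at other adenosines, 2 and 1. Only these among the 9 lie where sites called at MII and not at GV are listed in full. The others cannot be checked for such calls.

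**Figure D5:**
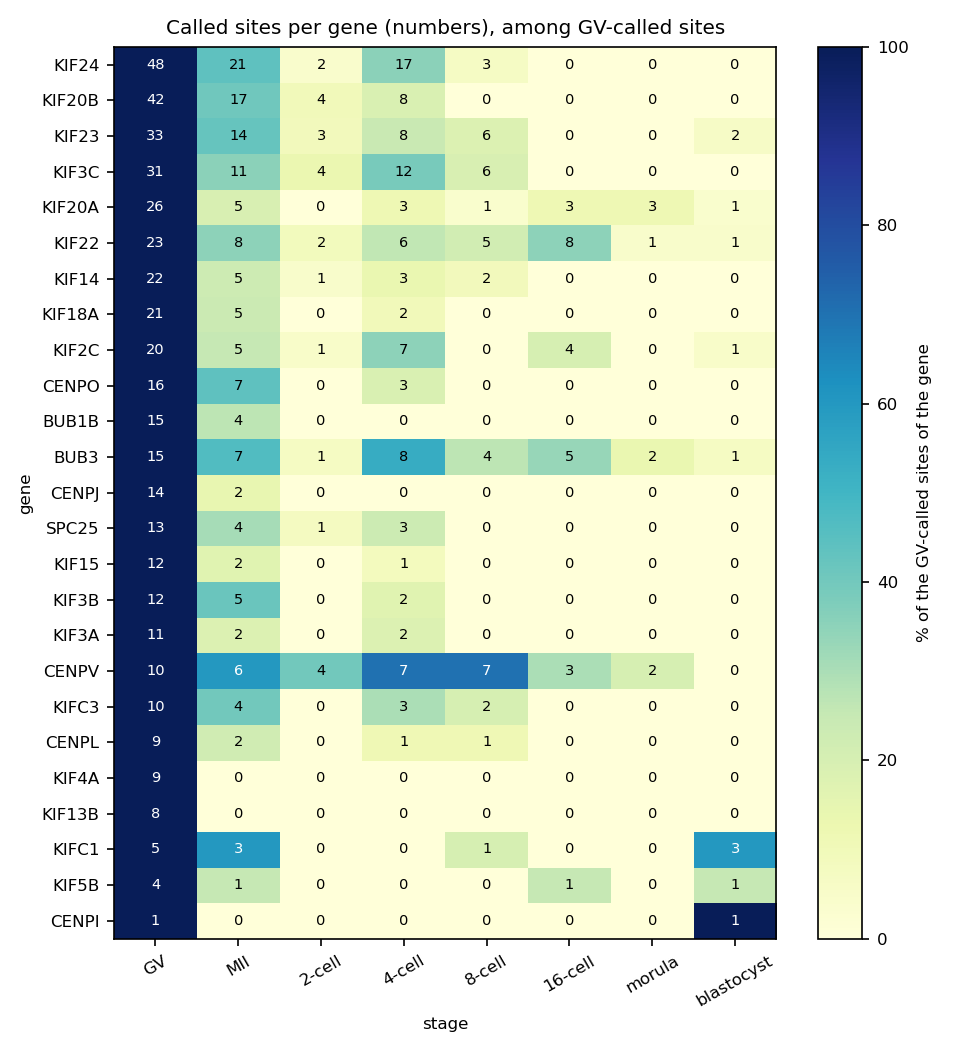
Number of called sites (printed in each cell) and percentage of the gene's GV-called sites (colour) for each gene with at least 8 GV sites or a blastocyst call, by stage. KIF20A, KIF22, BUB3 and CENPV are the genes with a call in morulae, while no GV site of KIF4A or KIF13B is called later.

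Other spindle and kinetochore genes gave a comparison. Of a list of 46, 32 had 515 GV sites, led by CKAP5, a microtubule polymerase, with 63. MII oocytes had 39.0% of them, 2-cell embryos 13.6% (interval 10.8 to 16.9), 4-cell embryos 26.6% and 8-cell embryos 15.9% (interval 12.9 to 19.4). Embryos of 16 cells, morulae and blastocysts had 6.80%, 3.69% and 3.30% (interval 1.93 to 5.23). The shares of all GV-called sites at the later stages, in order of development, were 34.1%, 7.39%, 22.7%, 9.32%, 6.01%, 4.42% and 7.64%. The mitotic kinase AURKA, the spindle protein TACC3 and CDCA8, a passenger protein, kept 14 sites each at the 8-cell stage, of 19, 23 and 26, and PRC1, a midzone protein that binds KIF4A, kept 12 of 33. Without these 4 genes, which were picked for their calls, the other 28 had 21 of 414 sites in 2-cell embryos, 5.07% (interval 3.17 to 7.65), and 28 in 8-cell embryos, 6.76% (interval 4.54 to 9.63). The higher shares of the list at these stages thus rest on the 4 genes. Without them its intervals overlap those of the kinesin and centromere genes. Removing genes picked for their calls had to lower the shares, and no gene was removed from the kinesin and centromere genes. The overlap therefore does not show that the lists are alike. CENPF, the kinetochore gene left out by the rule, kept 62 of 161 sites in MII oocytes (38.5%), 34 in 4-cell (21.1%) and 3 in 8-cell embryos (1.86%). It had 0 in 16-cell embryos, 2 in morulae and 1 in blastocysts (0.621%, interval 0.0157 to 3.41). A blastocyst share below that of all sites was thus not particular to the kinesin and centromere genes.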

How the data were processed

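The authors deposited a table of adenosines with 1 m6A score per stage, gene, region and 5-base motif. The scores are not whole numbers although the table is named for raw counts, and their scale is not stated. Per the submitters' processing notes, STAR 2.5.3a and Trimmomatic 0.39 were used. Not given in the sources used here were the caller of sites, the build, the annotation and how arms and replicates were combined. The table has 65536 lines with its header and ends within the sites called at MII and not at GV. Those 4690 rows are on the minus strand and complete for chromosomes 10 to 19. The window compared there leaves out large-subunit ribosomal protein genes.

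Each column was taken as the pooled value of its stage. Calls were scores of at least 0.1. All 42 symbols were found in the RefSeq table of ARS-UCD2.0, used for names only. Ratios of scores were taken on the log2 scale at sites called at both stages. The members and lists were chosen with earlier results of these data known. Named were genes with at least 8 GV sites or a blastocyst call and the 5 highest GV scores, with genes of smaller roles named with their counts. KIF11, CENPE, CENPT, INCENP and KIF1C, the 4 genes left out of the other spindle list, the sites of late stages, close pairs, dense stretches and the untranslated sites of KIF3C were chosen after their values were seen. No test was run, since a stage has 1 value per site. Calculations were tested on simulated data. Alternatives are given in the closing section. Tools were matplotlib 3.10.9, scipy 1.17.1, pandas 2.3.3 and numpy 2.4.6 under Python 3.11.15.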

Additional observations from a re-analysis of the deposited data

How the results depend on the processing

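Of 67 alternative values, 58 were counted as the same as the value reported and 9 as moved. For shares this means within or beyond the counting interval. No log2 ratio was counted as moved, although at a score of at least 0.2 the 16-cell median went from 0.48 to 0.08. The morula median went from 0.41 to 0.07 there, over 3 sites and below its lower quartile of 0.21. For the log2 ratios the count is thus no sign of stability. Among the 67, no log2 ratio changed sign, whereas a share or a ratio of counts cannot change sign. Of 49 alternative shares by stage, 46 lay below the value of all sites. At MII the share of 31.2% was 26.7% at a score of at least 0.2 (30.0% for all sites), 36.6% with any score above 0 (38.9%) and 41.4% at DRACH motifs (45.3%). With each gene counted once it was 25.2% (25%), which is no longer below all sites. At the 2-cell stage DRACH motifs gave 9.21% (8.67%), which is above and no longer below the value of all sites. The 4-cell share was 14.9% at a score of at least 0.2 (17.8%), and 18.3% with each gene counted once (14.3%), again above all sites. With each gene counted once the 8-cell share was 5.39% (6.37%) and the blastocyst share 5.02% (8.23%), where CENPI, with 1 site, and KIFC1 weigh most. In the window of chromosomes 10 to 19, DRACH motifs gave 38.7% of GV sites called at MII (45.2%). The morula and blastocyst shares stayed below those of all sites under all 7 alternatives. Leaving out KIF24, coding sequence alone and leaving out GGACA motifs, the last chosen after seeing the data, moved no share beyond its interval. The cause of these moves was not tested. No paired analysis was possible because the columns do not separate replicates, and no replicate could be left out. Depth is unknown, so a missing call is no evidence of an unmodified adenosine.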
